A study of Homo sapiens with 14 samples.

Results

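The DNAJ genes encode the J-domain co-chaperones of the HSP70 system, and 40 protein-coding DNAJ genes of 28120 genes in the table of counts are described here. They were chosen by name: every protein-coding row whose symbol is DNAJA, DNAJB or DNAJC followed by a number. The naming rule used no measured value, but earlier results of these data were known when it was chosen. Class A holds 4 of them, class B 11 and class C 25. The 8 rows whose DNAJ symbols carry other endings, such as DNAJC5B or the antisense genes, were left out.

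HSP70 proteins bind unfolded stretches of client proteins in a cycle driven by ATP. A J-domain protein delivers the client and stimulates ATP hydrolysis, which locks HSP70 onto it, and a nucleotide exchange factor then opens the complex again. Class A and class B members bind clients themselves and act as general folding partners, class A with a zinc-binding region that class B lacks. Class C members share only the J domain and mostly send HSP70 to a set task, such as import into mitochondria, removal of clathrin coats, ribosome binding or folding in the endoplasmic reticulum.

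The RNA came from PANC-1, an established human pancreatic ductal carcinoma cell line, so every group is 1 line in culture. Cells received proanthocyanidins (PA, plant polyphenols) at 20 µg/ml for 3, 12 or 24 h, or the vehicle DMSO for 0, 3, 12 or 24 h. There are 2 libraries in each of the 7 groups, 14 in all. The labels used here do not tie the libraries of a group to separate cultures. A p-value therefore covers the spread between libraries alone, which may be technical.

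Counted reads per library ranged from 26403984 to 35213154, of which 90680 to 146007 fell in DNAJ genes. A count of 0 allows up to 3 reads, or 0.0832 to 0.108 CPM (read counts scaled to library size, TMM-normalised), for counting error only. The spread between libraries of a group (biological coefficient of variation) was 15.1% over 15181 tested genes. The PA 12 h libraries were the pair that agreed least, with a Spearman correlation of 0.978 across genes, and the 12 h calls lost when 1 of them was left out are named with the results. Reads from the mitochondrial genome made up 4.35% to 6.05% of DMSO libraries and 4.72% to 10.0% of PA libraries. The slope of a gene's relative level on its GC content, in log2 units per 10 percentage points of GC, was -0.326 to -0.0644 in DMSO and 0.0278 to 0.593 in PA libraries, so this trend differed between the arms. Of the epithelial markers, 5 of 8 were higher in PA at 12 and at 24 h, beside 24.4% and 27.2% of all genes by edgeR, and their summed level was 5192 to 6162 CPM in DMSO, 6902 to 8401 CPM in PA at 3 h, 10651 to 15274 CPM at 12 h and 18292 to 21078 CPM at 24 h. KRT8, KRT18 and KRT19 made up most of this sum, while CDH1 stayed between 0.274 and 1.34 CPM. Of the fibroblast markers 2 of 7 passed the filter on low counts, of the leukocyte markers 2 of 6 and of the endothelial markers 1 of 4. The summed level of the fibroblast markers, nearly all of it COL1A1, was 8.64 to 27.3 CPM in DMSO and 20.6 to 29.6 CPM in PA, and COL1A1 was higher by log2 1.28 at 12 h and 0.65 at 24 h by edgeR. That of the leukocyte markers, nearly all of it CD68, was 33.3 to 47.4 CPM in DMSO, 49.6 to 56.3 CPM in PA at 3 h, 47.3 to 79.8 CPM at 12 h and 82.1 to 83.0 CPM at 24 h. CD68, a lysosomal protein of macrophages that other cells also express, was higher by 0.52 (adjusted p = 0.0494) and 1.17, and CD14 by 1.62 and 1.57, at 4.93 and 1.75 CPM in PA at 12 h. Without PA 12 h replicate 1 the 12 h calls of CD68 and CD14 were lost. The endothelial sum was 0.353 to 1.30 CPM in all libraries and was not called. PTPRC and CD3E of the leukocyte markers, and DCN, LUM and PDGFRA of the fibroblast markers, reached at most 0.222 CPM in any library. The part of these markers in the DNAJ results was not tested.

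Promoter windows of 4 members are shown first. DNAJC2 had the deepest fall and DNAJC12 the largest rise with PA, while DNAJA1 and DNAJB6 were the only members with a heat shock element. DNAJA1 fell with PA, but not once the trend on GC content was removed, and DNAJB6 rose. Members that changed more than DNAJA1 and DNAJB6, such as DNAJB2, DNAJC28 and DNAJB14, are not shown here. Each window is RefSeq sequence of GRCh38.p14, 250 bases before to 50 after the start site, 300 in all, 5′ to 3′ on the gene's own strand. Capitals mark a heat shock element in DNAJA1 and DNAJB6 and a CCAAT box in DNAJC12, and the DNAJC2 window held neither of the motifs. The windows lie at chr9:33025023-33025322 (plus strand), chr7:157336754-157337053 (plus), chr10:67838139-67838438 (minus) and chr7:103344718-103345017 (minus).
DNAJA1: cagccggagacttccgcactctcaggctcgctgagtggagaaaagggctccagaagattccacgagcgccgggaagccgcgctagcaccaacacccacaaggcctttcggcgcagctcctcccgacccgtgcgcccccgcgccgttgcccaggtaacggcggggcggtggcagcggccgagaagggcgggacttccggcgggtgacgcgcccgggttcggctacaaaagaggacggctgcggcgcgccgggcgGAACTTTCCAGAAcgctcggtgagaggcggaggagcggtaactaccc
DNAJB6: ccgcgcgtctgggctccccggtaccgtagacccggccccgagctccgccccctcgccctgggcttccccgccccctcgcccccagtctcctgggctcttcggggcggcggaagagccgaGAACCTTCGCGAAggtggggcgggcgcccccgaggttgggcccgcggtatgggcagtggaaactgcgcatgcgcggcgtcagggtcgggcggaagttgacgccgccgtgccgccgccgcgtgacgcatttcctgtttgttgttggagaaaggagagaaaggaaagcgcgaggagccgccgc
DNAJC12: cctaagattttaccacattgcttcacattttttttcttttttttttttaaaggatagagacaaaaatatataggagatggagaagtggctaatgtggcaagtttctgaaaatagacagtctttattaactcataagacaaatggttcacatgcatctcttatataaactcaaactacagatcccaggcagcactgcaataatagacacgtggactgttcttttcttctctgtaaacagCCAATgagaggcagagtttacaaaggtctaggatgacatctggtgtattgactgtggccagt
DNAJC2: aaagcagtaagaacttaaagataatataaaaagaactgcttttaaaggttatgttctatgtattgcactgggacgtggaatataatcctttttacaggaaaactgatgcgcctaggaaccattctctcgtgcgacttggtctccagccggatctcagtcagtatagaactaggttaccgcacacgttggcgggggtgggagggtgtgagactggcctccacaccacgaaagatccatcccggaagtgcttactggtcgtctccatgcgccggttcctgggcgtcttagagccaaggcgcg

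RefSeq windows were found for 37 of the 40 members (48 windows), and not for DNAJC1, DNAJC22 and DNAJC24. Searched on both strands, the heat shock element occurred in 0.49% of all 35116 windows and in 2 members, from base 3 to 15 after the start site in DNAJA1 and from base -131 to -119 in DNAJB6, with the start site counted as 0. DNAJB6 rose with PA. DNAJA1 fell, but its calls were lost at 12 h (-0.12, adjusted p = 0.387) and 24 h (-0.23, adjusted p = 0.0796) when the trend on GC content and length was removed. The CCAAT box was in 34.6% of all windows and in 14 of 37 members. The endoplasmic reticulum stress element (which overlaps the CCAAT box) was in 0.0769% of windows and in 0 members, and the ATF4 core motif was in 3.62% of windows and in DNAJA4. The sterol element core was in 1.13% of windows and the E2F element in 1.63%, each in 0 members. Another form of the E2F element was in 0.652% of windows and in DNAJC6. The percentages are of windows, while a member counts if any of its windows held the motif, so they are not like for like. Each motif was searched as a fixed pattern with no mismatch allowed, so near matches were not counted. A member without a match may still hold a variant of the motif. These are letter matches in a short window and show no binding.

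By level per length, the most abundant members were DNAJA1 of class A (mean of 257 RPKM, which is reads per gene length and library total, over the 14 libraries), DNAJC8 of class C (207 RPKM) and DNAJB11 of class B (159 RPKM). DNAJB6 (108 RPKM) and DNAJB1 (105 RPKM) followed, then DNAJC7 (76.3 RPKM) and DNAJA2 (45.9 RPKM). At the other end DNAJA4 had a mean of 0.0971 RPKM. DNAJB13, known from sperm flagella, had at most 13 reads in a library and DNAJB8, a testis gene, at most 4. These last 2 members failed the filter on low counts, which left 38 tested members, and nothing is said of their response.

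PA changed few DNAJ genes at 3 h and most of them later. At 3 h 0 members were higher and 2 lower, beside 1.72% of all genes called (0.138% higher, 1.58% lower) by edgeR's quasi-likelihood test at an adjusted p under 0.05. Without adjustment 8 of 38 had p under 0.05, and DESeq2 also called 0 higher and 2 lower. At 12 h 10 were higher and 14 lower, or 63.2% of the 38, beside 48.5% of all genes (24.4% higher, 24.1% lower). At 24 h 9 were higher and 16 lower, or 65.8%, beside 54.6% of all genes (27.2% higher, 27.5% lower). The median log2 change of the members was -0.14 at 12 h and -0.41 at 24 h, and that of all tested genes 0.01 and -0.01. In bulk RNA, fewer cells of a type and less RNA per cell cannot be told apart.

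In class B 5 of 9 tested members rose and 2 fell at 12 h, and the same counts were found at 24 h, with a median log2 change of 0.35 and 0.55, beside 24.4% and 27.2% of all genes higher and 24.1% and 27.5% lower. In class C 5 of 25 rose and 11 fell at 12 h, and 4 rose and 12 fell at 24 h, with a median of -0.45 and -0.73. In class A, 0 of 4 rose by edgeR at either time, and 1 fell at 12 h and 2 at 24 h. The excess of falls in class C was smaller in a fit that allowed for GC content: with each library's trend on GC content and transcript length removed (the GC-corrected fit), class C had 4 higher and 5 lower at 12 h and 5 and 6 at 24 h, and class B 6 and 7 higher and 0 lower at either time, beside 40.3% of all genes called at 12 h and 49.6% at 24 h. Class A had 1 higher and 1 lower at either time in the GC-corrected fit. These counts are descriptions, with no test of a difference between classes. The same direction was called at 12 and 24 h for 8 members that rose (DNAJB1, DNAJB2, DNAJB5, DNAJB6, DNAJB12, DNAJC5, DNAJC12 and DNAJC18) and for 14 that fell, and 0 members were called in opposite directions. The number of calls at 12 h depended on single libraries, for the members and for all tested genes alike. Both had fewer calls without DMSO 12 h replicate 1, DMSO 12 h replicate 2 or PA 12 h replicate 1. Both had more calls without PA 12 h replicate 2. At 3 and 24 h, fewer of all tested genes were also called when any 1 of the 4 libraries was left out. Leaving out PA 12 h replicate 1 ended the 12 h calls of DNAJB4, DNAJB6, DNAJB12, DNAJC1, DNAJC3, DNAJC5, DNAJC7, DNAJC11, DNAJC12, DNAJC13, DNAJC16, DNAJC24 and DNAJC30. Leaving out DMSO 12 h replicate 1 ended the same calls apart from those of DNAJC7 and DNAJC24, and in addition that of DNAJC18. Without DMSO 12 h replicate 2 the calls of DNAJB6, DNAJC1, DNAJC3, DNAJC5, DNAJC7, DNAJC11 and DNAJC30 ended. At 24 h the counts ran from 8 to 10 higher and 11 to 16 lower over the 4 libraries left out. The 24 h call of DNAJB4 ended without any of them, that of DNAJC1 without DMSO 24 h replicate 2 or PA 24 h replicate 2, that of DNAJB12 without DMSO 24 h replicate 1 or PA 24 h replicate 2, and that of DNAJA3 without PA 24 h replicate 1. At 3 h 0 members were lower without DMSO 3 h replicate 2 or when PA 3 h replicate 1 was dropped, and 1 when PA 3 h replicate 2 was dropped.

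**Figure D1:**
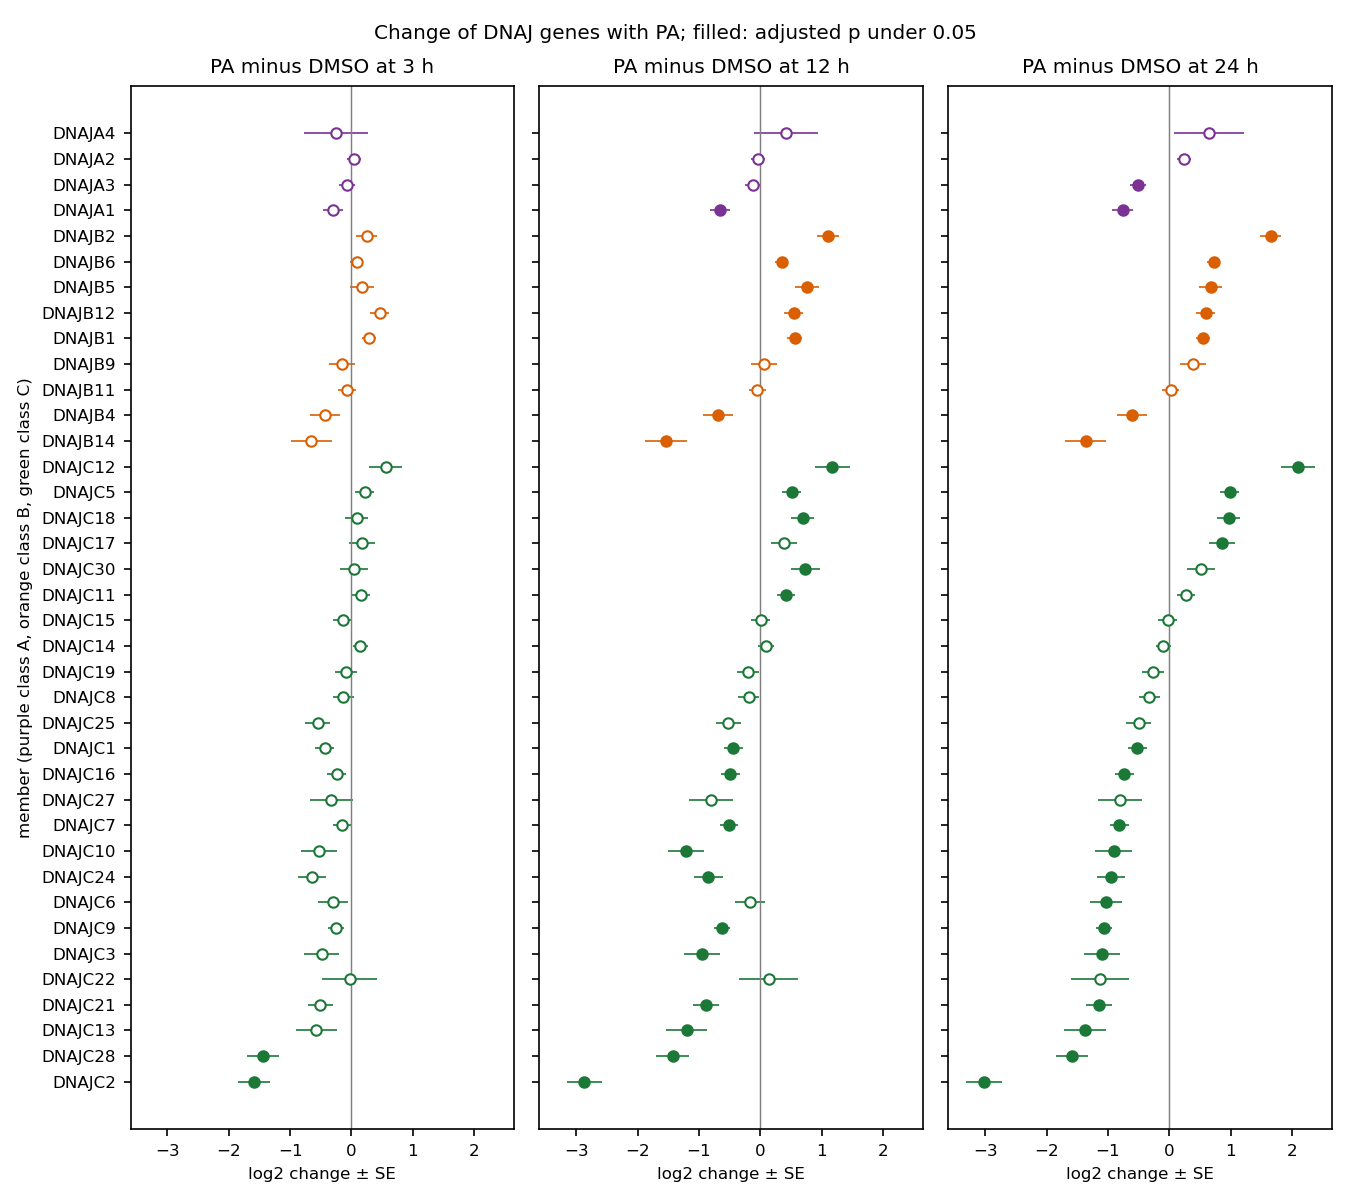
Log2 change with PA against DMSO at 3, 12 and 24 h (x axes, bars ± SE) for the 38 tested DNAJ genes (rows), by class in colour, with filled points at an adjusted p under 0.05. At 24 h the points span -3.02 for DNAJC2 to 2.10 for DNAJC12, and most class B points lie right of 0 while most class C points lie left of it.

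Levels also shifted between the classes when summed per length. Class B held 29.9% and 29.2% of the summed RPKM of all DNAJ genes in the DMSO 12 h libraries and 41.9% and 36.4% in PA at 12 h. At 24 h it held 29.1% and 29.1% in DMSO and 41.7% and 43.8% in PA. Each PA library was thus above each DMSO library, with a difference of group means of 9.57 percentage points at 12 h and 13.6 at 24 h. Class A went from 27.7% ± 0.386 (SD, n = 2) to 21.4% ± 1.97 at 12 h and from 27.1% ± 0.649 to 19.9% ± 0.487 at 24 h. Class C went from 42.8% ± 0.0881 to 39.4% ± 1.96 and from 43.8% ± 0.645 to 37.4% ± 1.01. In summed RPKM at 24 h, class B stood at 393 in DMSO and 419 in PA, class A at 366 and 196, and class C at 591 and 367. Changes of all genes on a log2(RPKM + 1) scale lay lower than on the TMM scale, with a median shift of -0.282 at 24 h. With each library's RPKM divided by its TMM factor, class B went from 366 to 504 (a ratio of 1.38, against 1.07 on the deposited scale), class A from 341 to 235 (0.690, against 0.535) and class C from 551 to 441 (0.801, against 0.621). On either scale the PA and DMSO libraries did not overlap in any class at 24 h, and the scale set how much class B gained and the others lost. Without the most abundant member of each class (DNAJA1, DNAJB11, DNAJC8), the share of class A differed by only -0.704 percentage points at 24 h, and that of class B by 16.1 and class C by -15.4. The shares were not corrected for GC content, and the median GC content of tested members was 45.2% in class A, 49.5% in class B and 43.3% in class C. The fall of DNAJA1 was not called once the trend on GC content and length was removed. The part of the GC trend in the shares was not tested. These shares carry no test.

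**Figure D2:**
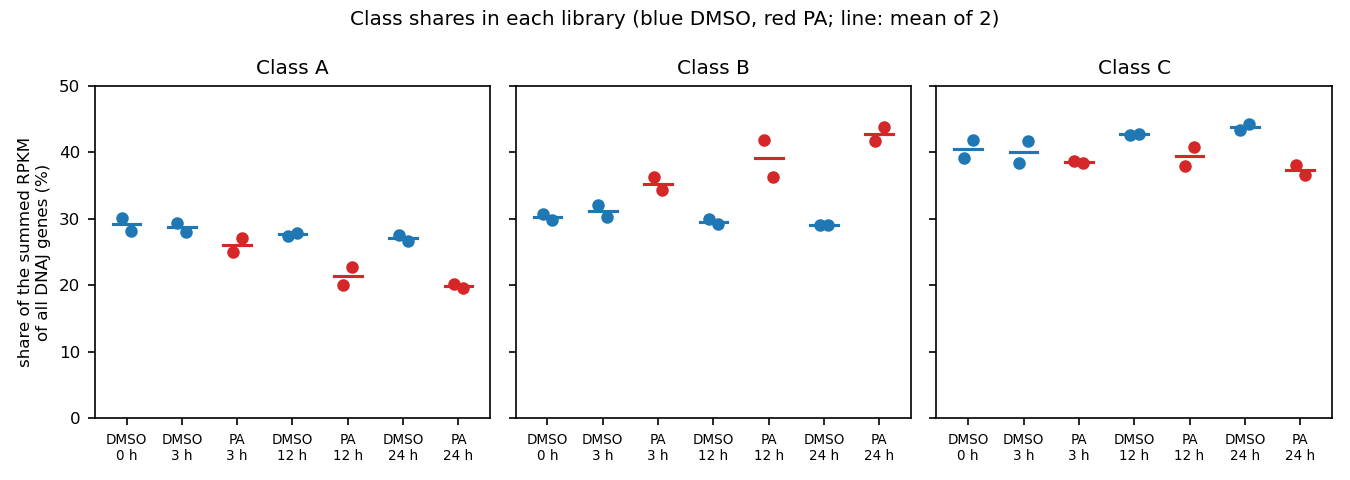
Share of the summed RPKM of all 40 DNAJ genes (y axis, %) held by class A, B and C in each library, DMSO in blue and PA in red, with a line at the mean of 2. Class B lies at 41.7% and 43.8% in PA at 24 h against 29.1% in both DMSO libraries, while classes A and C are lower in PA.

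Of the 7 members tied to the ribosome, RNA and histones, 0 rose and 5 fell at 12 h by edgeR, and 1 rose and 5 fell at 24 h, beside 24.1% and 27.5% of all genes lower. Their median log2 change was -0.63 and -0.95. The 5 were DNAJC1, DNAJC2, DNAJC9, DNAJC21 and DNAJC24 at both times, and DNAJC1 is also on the list of endoplasmic reticulum members. In the GC-corrected fit DNAJC21 and DNAJC24 lost both calls. This left 3 lower at each time, beside 17.6% and 22.1% of all genes lower in that fit. Without PA 12 h replicate 1 the 12 h calls of DNAJC1 and DNAJC24 ended. DNAJC2 (MPP11, at chr7:103312474-103344873 of GRCh38), which sits on the ribosome with HSPA14 and also binds chromatin, stood at 12.6 and 15.3 CPM in DMSO at 0 h, 11.5 and 16.9 CPM at 3 h, 13.2 and 14.03 CPM at 12 h and 11.7 and 12.0 CPM at 24 h. In PA it stood at 4.30 and 5.10 CPM at 3 h, 1.22 and 2.50 CPM at 12 h and 1.27 and 1.64 CPM at 24 h. All 6 PA libraries lay below all 8 DMSO libraries, and the PA level was lowest at 12 and 24 h. Its log2 change was -1.59 ± 0.258 (SE, adjusted p = 0.00605 by edgeR) at 3 h, -2.87 ± 0.287 (adjusted p = 1.44e-05) at 12 h and -3.02 ± 0.294 (adjusted p = 6.74e-06) at 24 h, a fall of 3.01-fold, 7.30-fold and 8.12-fold. This was the deepest fall among the members at each of the 3 times. The 3 h call was lost without DMSO 3 h replicate 2 (-1.27, adjusted p = 0.0958), and also when PA 3 h replicate 1 was left out (-1.47, adjusted p = 0.182). DNAJC2 shares exonic bases with PMPCB on the opposite strand, whose log2 change was -0.19 at 12 h (adjusted p = 0.195) and -0.51 at 24 h (adjusted p = 0.00288). Whether the authors counted by strand is not given in the sources used here.

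DNAJC9, a co-chaperone of histones H3 and H4, stood at 65.7 and 70.004 CPM in DMSO at 0 h, 73.0 and 71.1 CPM at 3 h, 63.9 and 72.0 CPM at 12 h and 74.8 and 82.6 CPM at 24 h, and in PA at 61.7 and 59.2 CPM at 3 h, 41.4 and 46.5 CPM at 12 h and 38.9 and 36.5 CPM at 24 h. Every PA library was below every DMSO library. It fell, with a log2 change of -0.63 ± 0.130 (adjusted p = 0.00175 by edgeR) at 12 h and -1.06 ± 0.131 (adjusted p = 3.70e-05) at 24 h. DNAJC9 shares exonic bases with MRPS16 and, on the opposite strand, with FAM149B1, whose log2 change was -0.84 at 24 h. DNAJC21, which helps mature the large ribosomal subunit, read 172 and 189.9 CPM in DMSO at 0 h, 146 and 196 CPM at 3 h, 199.8 and 210.4 CPM at 12 h and 195 and 209.5 CPM at 24 h. With PA it read 104 and 137 CPM at 3 h, 89.1 and 133 CPM at 12 h and 104 and 77.8 CPM at 24 h, below all DMSO libraries in each case. Its log2 change was -0.89 ± 0.210 at 12 h (adjusted p = 0.00389) and -1.15 ± 0.211 at 24 h (adjusted p = 0.000551), against 0.08 and -0.20 with the trend removed. DNAJC24, of diphthamide synthesis, had a log2 change of -0.85 at 12 h and -0.95 at 24 h, against -0.29 (adjusted p = 0.213) and -0.39 (adjusted p = 0.0778) with it removed.

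The exceptions on this list were DNAJC8 and DNAJC17. The spliceosome-associated DNAJC8, the most abundant class C member, had 384 and 471 CPM in DMSO at 0 h, 397 and 435 CPM at 3 h, 349 and 408 CPM at 12 h and 428 and 469 CPM at 24 h, and in PA 346 and 414 CPM at 3 h, 287 and 379 CPM at 12 h and 399.9 and 317 CPM at 24 h. The groups of the same time overlapped at 3 and 12 h. At 24 h both PA libraries were below both DMSO libraries of that time, but replicate 1 lay within the range of the other DMSO libraries. The change of DNAJC8 at 24 h was log2 -0.32 ± 0.171 (adjusted p = 0.125). DNAJC17, a nuclear member with an RNA-binding motif, had 43.1 and 53.5 CPM in DMSO at 0 h, 48.8 and 40.5 CPM at 3 h, 31.2 and 41.3 CPM at 12 h and 39.1 and 45.6 CPM at 24 h. It reached 47.3 and 53.4 CPM at 3 h, 57.8 and 37.0 CPM at 12 h and 78.6 and 74.6 CPM at 24 h in PA, and both libraries lay above all DMSO libraries at 24 h but not at 3 or 12 h. The log2 change at 24 h was 0.86 ± 0.209 (adjusted p = 0.0037), and at 12 h it was 0.38 (adjusted p = 0.143). DNAJC17 overlaps exons of GCHFR, whose log2 change was 1.99 at 12 h and 2.10 at 24 h, and reads of these genes may not be told apart.

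**Figure D3:**
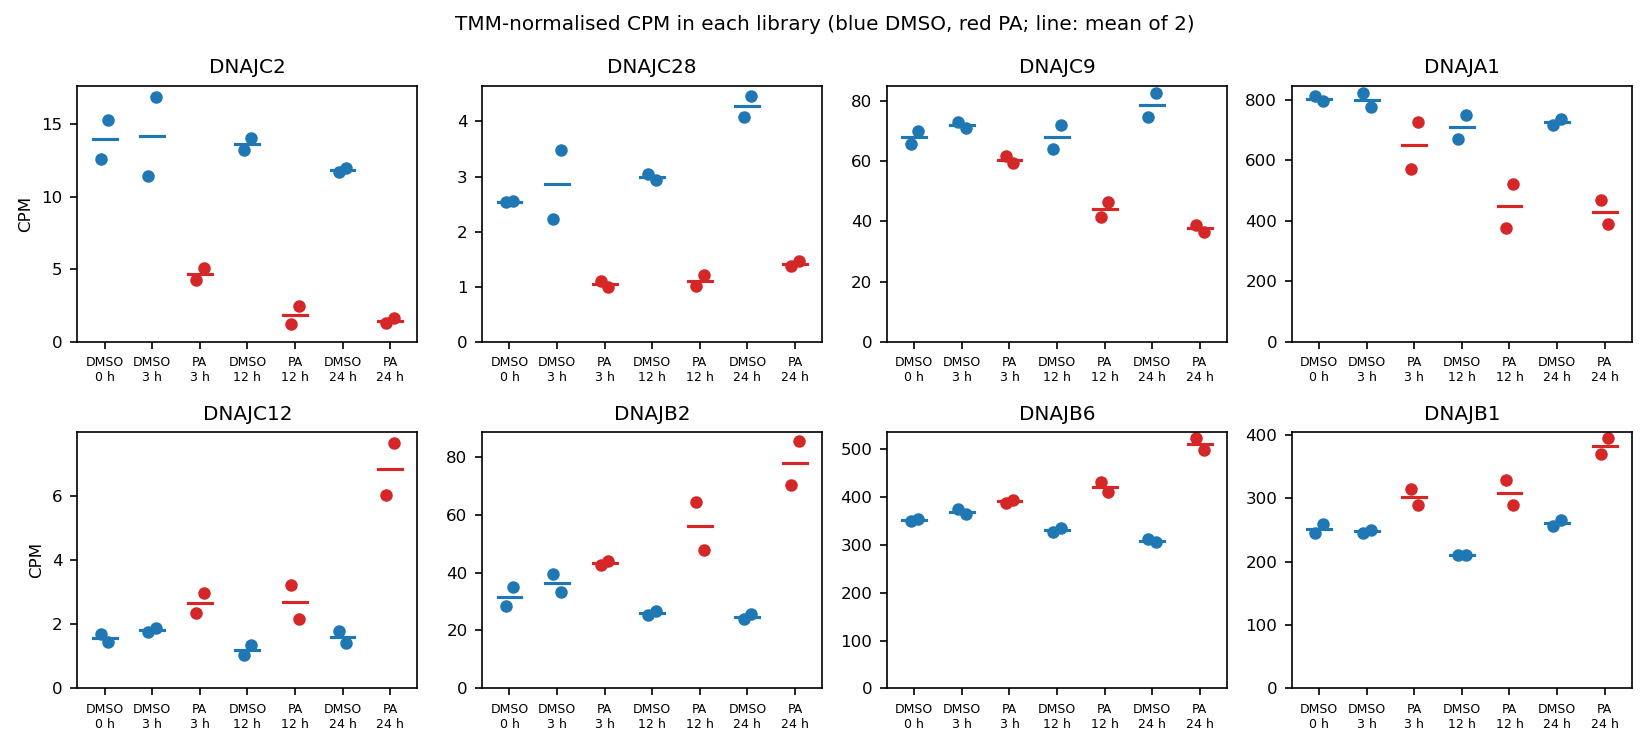
Normalised level (CPM, y axes from 0) of 8 DNAJ genes in each of the 14 libraries, DMSO in blue and PA in red, with a line at the mean of 2. DNAJC2, DNAJC28, DNAJC9 and DNAJA1 (top) are lower in PA at 12 and 24 h, and DNAJC12, DNAJB2, DNAJB6 and DNAJB1 (bottom) are higher.

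Among the cytosolic folding members, 4 of 9 rose and 3 fell at both 12 and 24 h, beside 48.5% and 54.6% of all genes called in either direction. The counts were 6 and 1 in the GC-corrected fit at both times, beside 40.3% and 49.6% of all genes called in that fit. DNAJB2 (HSJ1, at chr2:219279267-219286900), which binds ubiquitin and steers clients to the proteasome, stood at 28.5 and 35.0 CPM in DMSO at 0 h, 39.4 and 33.5 CPM at 3 h, 25.5 and 26.9 CPM at 12 h and 24.0 and 25.5 CPM at 24 h. In PA its level was 42.7 and 43.9 CPM at 3 h, 64.6 and 47.8 CPM at 12 h and 70.3 and 85.4 CPM at 24 h. All PA libraries exceeded all DMSO libraries, by little at 3 h and clearly later. The change was 2.14-fold at 12 h (log2 1.10 ± 0.174, adjusted p = 3.34e-04 by edgeR) and 3.14-fold at 24 h (log2 1.65 ± 0.175, adjusted p = 1.20e-05). DNAJB6, a suppressor of polyglutamine aggregation, had 351 and 354 CPM in DMSO at 0 h, 374 and 364 CPM at 3 h, 327 and 335 CPM at 12 h and 312 and 306 CPM at 24 h, and 388 and 394 CPM at 3 h, 432 and 411 CPM at 12 h and 524 and 498 CPM at 24 h in PA. Each PA library was again above each DMSO library. Its log2 change was 0.35 ± 0.106 at 12 h (adjusted p = 0.0152) and 0.73 ± 0.106 at 24 h (adjusted p = 1.16e-04).

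DNAJB1, the classical heat-inducible HSP40, had 245 and 259.8 CPM in DMSO at 0 h, 246 and 250.5 CPM at 3 h, 210.5 and 209.9 CPM at 12 h and 257 and 265 CPM at 24 h. It had 315 and 289 CPM at 3 h, 329 and 289.6 CPM at 12 h and 370.0 and 395 CPM at 24 h in PA, always above the DMSO libraries. The log2 change was 0.28 at 3 h, which missed the threshold (adjusted p = 0.244), 0.56 ± 0.116 at 12 h (adjusted p = 0.00181) and 0.55 ± 0.116 at 24 h (adjusted p = 0.0014). DNAJB5, a close relative of DNAJB1, read 8.02 and 10.8 CPM in DMSO at 0 h, 7.58 and 9.60 CPM at 3 h, 9.45 and 8.70 CPM at 12 h and 12.1 and 10.6 CPM at 24 h, and with PA 9.79 and 9.56 CPM at 3 h, 17.2 and 13.5 CPM at 12 h and 18.0 and 18.4 CPM at 24 h. Its libraries separated at 12 and 24 h but not at 3 h, with a log2 change of 0.76 ± 0.190 (adjusted p = 0.0053) and 0.68 ± 0.187 (adjusted p = 0.00764). The 24 h call of DNAJB5 was lost without DMSO 24 h replicate 2 (0.58, adjusted p = 0.0724).

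The cytosolic members that fell were DNAJA1, DNAJB4 and DNAJC7, but with the GC content and length trend removed DNAJA1 lost both calls and DNAJB4 was called higher, so only the falls of DNAJC7 held in both fits. DNAJA1, the most abundant J-domain gene of these cells (at chr9:33025211-33039907) and a general partner of the constitutive HSC70, stood at 814 and 795 CPM in DMSO at 0 h, 824 and 776 CPM at 3 h, 671 and 749.7 CPM at 12 h and 719 and 737 CPM at 24 h. In PA it stood at 572 and 728 CPM at 3 h, 378 and 520.5 CPM at 12 h and 469.6 and 388 CPM at 24 h. At 3 h a PA library lay within the range of the DMSO libraries, and at 12 and 24 h all PA libraries were below all DMSO libraries. The log2 change was -0.66 ± 0.163 at 12 h (adjusted p = 0.00498 by edgeR) and -0.76 ± 0.164 at 24 h (adjusted p = 0.00157). DNAJA1 has 6 named pseudogenes in GENCODE 29, and how reads shared with them were counted is not given. DNAJC7, which also binds HSP90 through its TPR repeats, changed by log2 -0.51 and -0.81 at 12 and 24 h, and DNAJB4 by -0.69 and -0.61 (with the trend removed 0.63, adjusted p = 0.00222, and 0.59, adjusted p = 0.00254). The 12 h calls of DNAJB4 and DNAJC7 were lost without PA 12 h replicate 1. DNAJA2, another abundant cytosolic partner of HSC70, was not called at 12 h (-0.04, adjusted p = 0.798) or at 24 h (0.24, adjusted p = 0.102).

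DNAJC12 (at chr10:67796665-67838166), a co-chaperone of the aromatic amino acid hydroxylases, had the largest rise of any member. It stood at 1.68 and 1.44 CPM in DMSO at 0 h, 1.74 and 1.87 CPM at 3 h, 1.03 and 1.33 CPM at 12 h and 1.78 and 1.41 CPM at 24 h. In PA it reached 2.34 and 2.97 CPM at 3 h, 3.202 and 2.14 CPM at 12 h and 6.03 and 7.63 CPM at 24 h. Every PA library was above every DMSO library, and the 24 h libraries were highest. The rise was 2.25-fold at 12 h (log2 1.17 ± 0.289, adjusted p = 0.00495 by edgeR) and 4.28-fold at 24 h (log2 2.10 ± 0.271, adjusted p = 5.01e-05). Its counts were low, 30 to 219 reads per library, and the 12 h call was lost without DMSO 12 h replicate 1 (0.98, adjusted p = 0.0518) or PA 12 h replicate 1 (0.86, adjusted p = 0.0657).

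In the endoplasmic reticulum, 2 of 11 members rose and 4 fell at both 12 and 24 h by edgeR, near the 48.5% and 54.6% of all genes called. With the GC content and length trend removed, 2 rose and 1 fell at 12 h, and 3 and 1 at 24 h. That fit called 40.3% and 49.6% of all genes. DNAJB9 (ERdj4), a target of the unfolded protein response that represses IRE1 through BiP, stood at 16.8 and 13.8 CPM in DMSO at 0 h, 14.3 and 16.4 CPM at 3 h, 21.7 and 21.8 CPM at 12 h and 20.9 and 16.5 CPM at 24 h. In PA it stood at 13.96 and 13.7 CPM at 3 h, 17.4 and 27.8 CPM at 12 h and 26.8 and 22.03 CPM at 24 h. The PA libraries were below those of DMSO at 3 h, overlapped them at 12 h and lay above all DMSO libraries at 24 h. The log2 change of DNAJB9 was 0.06 ± 0.208 at 12 h (adjusted p = 0.842) and 0.39 ± 0.209 at 24 h (adjusted p = 0.132), neither past the threshold. With the GC content and length trend removed it was called higher at both times, by 0.73 (adjusted p = 3.66e-04) and 1.06 (adjusted p = 8.24e-06). DNAJB11 (ERdj3), a soluble partner of BiP, read 477 and 481 CPM in DMSO at 0 h, 535 and 465 CPM at 3 h, 405 and 472 CPM at 12 h and 399.8 and 449 CPM at 24 h, and with PA 429 and 521 CPM at 3 h, 414 and 434 CPM at 12 h and 466 and 396 CPM at 24 h. These ranges overlapped throughout, and the change was -0.05 ± 0.141 and 0.02 ± 0.141 at 12 and 24 h (adjusted p = 0.8 and 0.907).

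DNAJC3 (p58IPK), a lumenal co-chaperone of BiP, had 79.8 and 68.9 CPM in DMSO at 0 h, 68.3 and 76.4 CPM at 3 h, 98.8 and 89.1 CPM at 12 h and 66.7 and 61.9 CPM at 24 h, and 45.2 and 57.9 CPM at 3 h, 29.03 and 67.8 CPM at 12 h and 35.4 and 24.5 CPM at 24 h in PA. At each time the PA libraries were below the DMSO libraries of that time. Its log2 change was -0.96 ± 0.291 at 12 h (adjusted p = 0.0154) and -1.10 ± 0.294 at 24 h (adjusted p = 0.00635). DNAJC10 (ERdj5), a disulfide reductase of the degradation path, read 163 and 137 CPM in DMSO at 0 h, 143 and 153 CPM at 3 h, 144 and 138 CPM at 12 h and 136 and 141 CPM at 24 h. With PA it read 85.8 and 119 CPM at 3 h, 35.8 and 86.0 CPM at 12 h and 86.4 and 61.4 CPM at 24 h, below every DMSO library, with a wide gap between the 12 h libraries. The change was -1.21 ± 0.300 (adjusted p = 0.00505) and -0.91 ± 0.298 (adjusted p = 0.0194). Leaving out PA 24 h replicate 2 ended the 24 h calls of DNAJC3 (-0.86, adjusted p = 0.0744) and DNAJC10 (-0.68, adjusted p = 0.157), and that of DNAJC10 was also lost without DMSO 24 h replicate 1 or 2. At 12 h DNAJC3 was at -0.47 (adjusted p = 0.0919) without PA 12 h replicate 1. In the GC-corrected fit DNAJC3 was at -0.13 and -0.22 and DNAJC10 at -0.07 and 0.18 at 12 and 24 h, none of them called.

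The membrane-bound pair DNAJB12 and DNAJB14, whose J domains face the cytosol, were called in opposite directions, though not once the GC content and length trend was removed. DNAJB14 had 26.4 and 20.9 CPM in DMSO at 0 h, 19.9 and 24.1 CPM at 3 h, 33.1 and 28.8 CPM at 12 h and 26.0 and 29.1 CPM at 24 h. In PA it had 11.8 and 16.1 CPM at 3 h, 5.65 and 15.6 CPM at 12 h and 12.5 and 8.86 CPM at 24 h, all below the DMSO libraries. The change was -1.54 ± 0.339 at 12 h (adjusted p = 0.0025 by edgeR) and -1.36 ± 0.338 at 24 h (adjusted p = 0.00402). With the trend removed it was at -0.20 and -0.04, not called. DNAJB12 rose by log2 0.54 and 0.60 (with the trend removed 0.17, adjusted p = 0.17, and 0.27, adjusted p = 0.027), and DNAJC18, related to both, had 6.88 and 5.18 CPM in DMSO at 0 h, 5.32 and 5.10 CPM at 3 h, 4.93 and 5.21 CPM at 12 h and 6.15 and 5.65 CPM at 24 h. In PA the latter had 6.22 and 4.82 CPM at 3 h, 7.91 and 8.43 CPM at 12 h and 11.6 and 11.4 CPM at 24 h, overlapping DMSO at 3 h only. Its change was 0.69 ± 0.190 at 12 h (adjusted p = 0.00931) and 0.96 ± 0.187 at 24 h (adjusted p = 0.00079). DNAJC1, which binds ribosomes at the membrane, fell, with a log2 change of -0.45 and -0.52, while DNAJC14, DNAJC22 and DNAJC25 were not called at any time. DNAJC25 had 352 to 959 reads per library and shares exonic bases on the same strand with DNAJC25-GNG10, which had a mean of 2661 reads. DNAJC25-GNG10 was lower at 24 h (-0.61, adjusted p = 0.0191 by edgeR), and how reads shared by these genes were counted is not given.

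Of the mitochondrial members, 2 of 6 tested rose and 1 fell at 12 h, and 0 rose and 2 fell at 24 h by edgeR, beside 48.5% and 54.6% of all genes called. The GC-corrected fit gave 2 higher and 2 lower at 12 h, and 1 and 2 at 24 h, beside 40.3% and 49.6% of all genes. DNAJC28 (at chr21:33485530-33491720), placed in mitochondria, had 2.54 and 2.55 CPM in DMSO at 0 h, 2.24 and 3.48 CPM at 3 h, 3.05 and 2.94 CPM at 12 h and 4.09 and 4.47 CPM at 24 h. It had 1.11 and 0.998 CPM at 3 h, 1.01 and 1.21 CPM at 12 h and 1.37 and 1.46 CPM at 24 h in PA, all below the DMSO libraries. The change was -1.44 ± 0.265 at 3 h (adjusted p = 0.015), -1.43 ± 0.270 at 12 h (adjusted p = 0.00104) and -1.59 ± 0.259 at 24 h (adjusted p = 2.44e-04). Its counts were 28 to 140 reads per library, and the 3 h call was lost without DMSO 3 h replicate 2 (adjusted p = 0.139), PA 3 h replicate 1 (adjusted p = 0.173) or PA 3 h replicate 2 (adjusted p = 0.1). DNAJC30, an interactor of the ATP synthase, read 7.59 and 7.05 CPM in DMSO at 0 h, 7.67 and 6.43 CPM at 3 h, 4.08 and 4.52 CPM at 12 h and 5.99 and 5.91 CPM at 24 h, and with PA 5.88 and 8.59 CPM at 3 h, 8.24 and 6.07 CPM at 12 h and 7.26 and 9.73 CPM at 24 h. The PA libraries at 12 h were above those of DMSO at 12 h, but replicate 2 lay below every DMSO library of 0 and 3 h. Its change was 0.73 ± 0.233 at 12 h (adjusted p = 0.0188) and 0.51 at 24 h (adjusted p = 0.0696), and without PA 12 h replicate 1 the 12 h value was 0.50 (adjusted p = 0.158). DNAJA3 (Tid1), the matrix partner of mitochondrial HSP70, fell, with a log2 change of -0.51 ± 0.134 at 24 h, and the import motor subunits DNAJC15 and DNAJC19 were not called at any time.

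Of 4 vesicle and endosome members, 1 rose and 1 fell at 12 h, and 1 rose and 2 fell at 24 h, beside 48.5% and 54.6% of all genes called. The GC-corrected fit called 0 at 12 h, and 1 higher and 1 lower at 24 h, beside 40.3% and 49.6% of all genes. DNAJC5 (cysteine string protein alpha), of secretory vesicles, had 101 and 99.8 CPM in DMSO at 0 h, 114 and 101 CPM at 3 h, 108 and 107 CPM at 12 h and 76.5 and 83.7 CPM at 24 h. In PA it had 133 and 117 CPM at 3 h, 174 and 132 CPM at 12 h and 141 and 176 CPM at 24 h, each above the highest DMSO library. The change was 0.51 ± 0.158 at 12 h (adjusted p = 0.0172 by edgeR) and 0.98 ± 0.159 at 24 h (adjusted p = 2.33e-04). The endosomal DNAJC13 (RME-8) had 109 and 87.6 CPM in DMSO at 0 h, 88.3 and 107 CPM at 3 h, 133 and 107 CPM at 12 h and 109 and 104 CPM at 24 h, and 59.4 and 72.0 CPM at 3 h, 30.001 and 74.3 CPM at 12 h and 52.9 and 29.5 CPM at 24 h in PA. All its PA libraries were below the DMSO libraries, with a change of -1.20 ± 0.336 (adjusted p = 0.0098) and -1.37 ± 0.338 (adjusted p = 0.00386). Without PA 12 h replicate 1 the 12 h values were 0.30 for DNAJC5 (adjusted p = 0.168) and -0.69 for DNAJC13 (adjusted p = 0.0514), and without PA 24 h replicate 2 DNAJC13 was at -1.01 at 24 h (adjusted p = 0.0542). DNAJC6 (auxilin), which uncoats clathrin vesicles, fell, with a log2 change of -1.03 at 24 h. This call was lost in the GC-corrected fit (-0.33, adjusted p = 0.319 by edgeR). Its relative GAK, outside the naming rule, rose by 0.61 and 0.62 at 12 and 24 h. The calls of GAK were lost at both times with the trend removed (0.03 and 0.06). They were also lost at 12 h without PA 12 h replicate 1 or DMSO 12 h replicate 2, and at 24 h without DMSO 24 h replicate 1.

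The effect grew between 3 and 24 h for 7 members, beside 14.4% of all genes (8.24% higher, 6.2% lower) by edgeR's test of the difference. The log2 effect of PA was higher at 24 h by 1.54 ± 0.382 for DNAJC12 (adjusted p = 0.0193) and by 1.40 ± 0.243 for DNAJB2 (adjusted p = 0.00341), with DNAJB6, DNAJC5 and DNAJC18 also called. The difference was -1.43 ± 0.388 for DNAJC2 (adjusted p = 0.0274), and DNAJC9 was also called. Between 3 and 12 h edgeR called 0 members, beside 2.79% of all genes (2.1% higher, 0.685% lower), with 5 at an unadjusted p under 0.05 and 1 higher and 1 lower by DESeq2. Between 12 and 24 h it called 0 of 38, beside 0.422% of all genes (0.263% higher, 0.158% lower), with 5 at an unadjusted p under 0.05 and 0 by DESeq2. Over the mean of the 3 times 11 members rose and 18 fell, beside 63.8% of all genes (31.5% higher, 32.3% lower). In DMSO alone edgeR called 0 members at 3, 12 or 24 h against 0 h, beside 0% of all genes at 3 h, 1.46% at 12 h (0.323% higher, 1.13% lower) and 2.46% at 24 h (0.527% higher, 1.93% lower). The counts at an unadjusted p under 0.05 were 0, 6 and 5, and DESeq2 called 1 higher at 12 h and 0 at 3 and 24 h. The PA effects share no libraries between times, but the 3 DMSO comparisons share the 0 h libraries.

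GC content moved with these changes. Across the 38 members the log2 change correlated with GC content of the longest basic GENCODE 29 transcript at Pearson 0.551, 0.604 and 0.494 (Spearman 0.659, 0.647 and 0.508) at 3, 12 and 24 h. Across 15071 tested genes the Pearson values were 0.37, 0.581 and 0.525, and all these points share the same libraries, so they are descriptions only. At 12 h the members that rose had a median GC content of 53.8% and those that fell 41.4%, and at 24 h 53.2% and 41.6%. With each library's trend on GC content and transcript length removed, 11 members were higher and 6 lower at 12 h, beside 40.3% of all genes, in place of 10 and 14. At 24 h 13 were higher and 7 lower, beside 49.6% of all genes, in place of 9 and 16. Of the calls, 11 at 12 h and 16 at 24 h were in the same direction in both fits.  The part of the GC trend in any single change was not tested.

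Removing the trend left DNAJC2 and DNAJC12 far from 0 and moved several other members, also some with large changes. DNAJC2 stayed at log2 -2.47 ± 0.229 at 12 h and -2.57 ± 0.237 at 24 h (adjusted p = 6.05e-07), and at -1.39 at 3 h (adjusted p = 0.000955). DNAJC12, whose transcript has low GC content (39.3%), was higher by 2.004 and 2.81, more than without the correction. DNAJB2, with the highest GC content among tested members (61.6%), kept its calls at 0.43 and 0.98, in place of 1.10 and 1.65. DNAJC9 kept its calls at -0.46 and -0.83. DNAJC28 stood at -0.71 and -0.92, in place of -1.43 and -1.59, and its 12 h call held under this correction but not with the replicate block added (-0.72, adjusted p = 0.0529) or with GC content alone (-0.60, adjusted p = 0.0893). The calls of DNAJA1, DNAJB14, DNAJC3, DNAJC10 and DNAJC21 were lost at 12 and 24 h, and that of DNAJC5 at 12 h (0.11). DNAJC16 and DNAJC24 also lost their calls at both times, DNAJB12, DNAJC11, DNAJC13 and DNAJC30 at 12 h, and DNAJC6 at 24 h. The GC content and length of DNAJC10 come from a transcript of 20129 bases, far longer than those of the other members.

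Other members passed the threshold only after the correction. Besides DNAJB9, DNAJA2 was higher by 0.63 and 0.89, and DNAJC15 by 1.07 and 0.998. At 12 h DNAJC19 was higher by 0.57 and DNAJA3 lower, with a log2 change of -0.45. DNAJB4 was the member whose called direction turned. DNAJB1, DNAJB5 and DNAJB6 stayed higher at both times, at 0.27, 0.47 and 0.68 at 24 h.

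**Figure D4:**
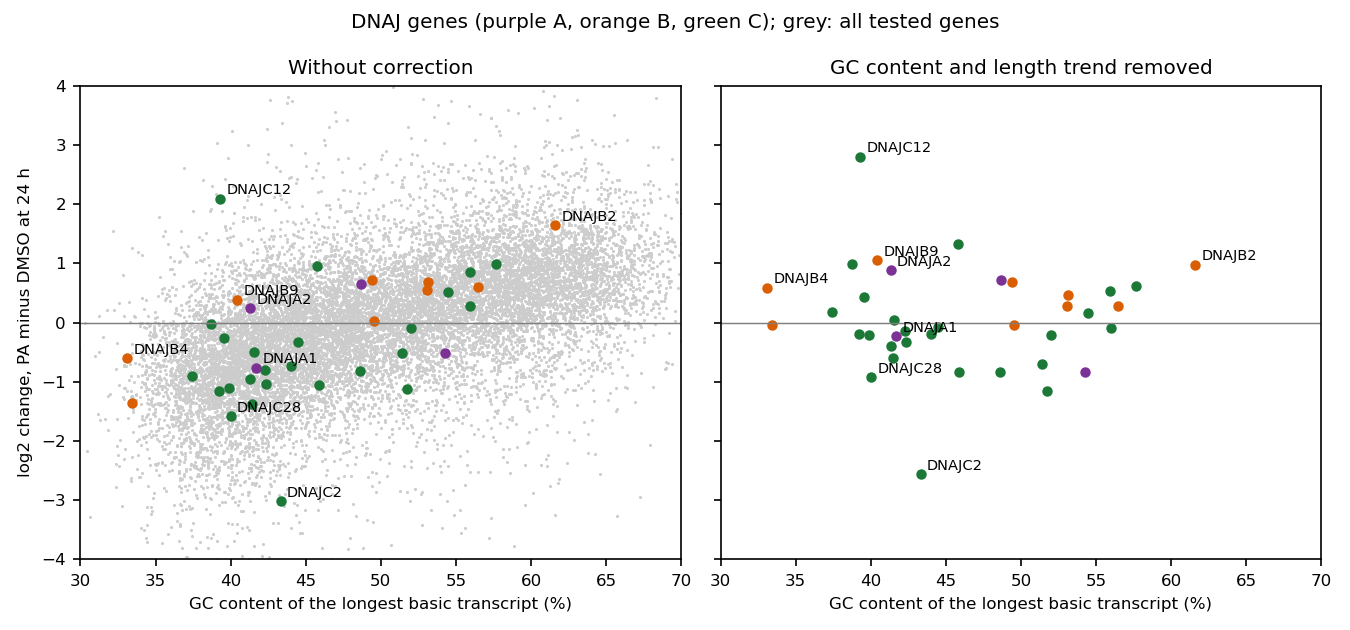
Log2 change with PA at 24 h (y axis) against GC content of the longest basic transcript (x axis, %) for the 38 tested DNAJ genes in colour by class, without correction (left, other tested genes within the axes in grey) and with the GC content and length trend removed (right). DNAJC2 and DNAJC12 lie far from 0 in both panels, while DNAJB4 goes from -0.61 to 0.59.

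Of 11 tested HSP70 genes, the partners of the DNAJ proteins, 3 were higher and 1 lower at 12 h, and 1 and 1 at 24 h by edgeR, beside 48.5% and 54.6% of all genes called. With the GC content and length trend removed the counts were 2 and 1 at 12 h and 4 and 4 at 24 h, beside 40.3% and 49.6% of all genes. BiP (HSPA5), the HSP70 of the endoplasmic reticulum, changed by log2 -0.14 ± 0.111 and 0.01 ± 0.111, and the constitutive HSC70 (HSPA8) by 0.09 ± 0.109 and -0.05 ± 0.109, none of them past the threshold, although HSPA5 was called at 24 h with the trend removed (0.31, adjusted p = 0.012). The heat-inducible HSPA1A was higher at 12 h (0.55 ± 0.148, adjusted p = 0.00757) but was not called at 24 h (0.33, adjusted p = 0.0709). Its level in PA at 12 h was 60.6 and 45.1 CPM, and without replicate 1 the 12 h change was 0.33 (adjusted p = 0.091). With the trend removed HSPA1A was not called at 12 h (-0.10) and was lower at 24 h (-0.33, adjusted p = 0.0138), so its direction turned between the fits. Its counts are uncertain, since reads of its near-identical copy HSPA1B may be split between them. HSPA2 rose by 1.48 and 1.29. HSPA14, the ribosomal partner of DNAJC2, fell, with a log2 change of -0.90 ± 0.175 (adjusted p = 0.00121) and -0.79 ± 0.175 (adjusted p = 0.0019). HSPA12B was called higher at 12 h (3.18 ± 1.24, adjusted p = 0.0477) at levels of 0 to 0.360 CPM, close to the limit that a count of 0 allows. That call was lost with any 1 of the 4 libraries left out and with the trend removed.

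Nucleotide exchange factors were called in both directions, with 4 of 14 higher and 6 lower at 12 h and 6 and 6 at 24 h, and all tested genes split as evenly (24.4% higher and 24.1% lower at 12 h, 27.2% and 27.5% at 24 h). With the trend removed 4 were higher and 3 lower at either time, beside 40.3% and 49.6% of all genes called. SIL1, the exchange factor of BiP, rose by 0.99 and 1.44 (adjusted p = 5.99e-05 at 24 h), and BAG6 by 0.95 and 1.27. The cytosolic HSPA4L fell, with a log2 change of -1.79 and -2.10, HSPH1 (HSP110) with -1.34 and -1.56, and the mitochondrial GRPEL2 with -1.002 and -0.91, the last not called with the trend removed (-0.07 and 0.01). BAG1 rose by 0.70 and 0.77. On the list of HSP90 and its co-chaperones 5 of 15 were higher and 6 lower at 12 h, and 3 and 6 at 24 h, beside 48.5% and 54.6% of all genes called. Without PA 12 h replicate 1 or DMSO 12 h replicate 1 the 12 h counts were 2 and 5, and with DMSO 12 h replicate 2 left out 3 and 6. The inducible HSP90AA1 fell, with a log2 change of -1.55 and -1.84 while HSP90AB1 changed by 0.14 and 0.10, not called. In PA at 12 h HSP90AA1 stood at 947 and 2241 CPM, and its change was -1.05 (adjusted p = 0.00124) without replicate 1 and -2.30 (adjusted p = 2.46e-07) without replicate 2. HSP90B1 of the endoplasmic reticulum fell, with a log2 change of -1.39 and -1.32, CHORDC1 with -1.64 and -1.63, AHSA2 with -1.5025 and -1.69, and FKBP5 with -0.48 and -1.29. The 12 h call of FKBP5 was lost without PA 12 h replicate 1 (-0.34, adjusted p = 0.0963) or DMSO 12 h replicate 1, and with the trend removed FKBP5 was higher at 12 h (0.30, adjusted p = 0.0414). The ubiquitin ligase STUB1 (CHIP) rose by 0.89 and 0.73, and was not called with the trend removed (0.06 and -0.16).

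Among 7 tested heat shock factors, small heat shock proteins and chaperonin genes, 2 were higher and 2 lower at 12 h, and 3 and 2 at 24 h, beside 48.5% and 54.6% of all genes called. With the trend removed 1 was higher and 3 lower at 12 h, and 2 and 3 at 24 h, beside 40.3% and 49.6% of all genes. HSF1, the main transcription factor of the heat shock response, rose by 0.43 ± 0.161 (adjusted p = 0.0403) and 0.75 ± 0.162 (adjusted p = 0.00167). Its 12 h levels in PA were 89.4 and 65.3 CPM, and the 12 h call was lost without PA 12 h replicate 1 (0.19, adjusted p = 0.387) or either DMSO 12 h library. With the trend removed the direction of HSF1 turned, to -0.37 at 12 h (adjusted p = 0.00779) and -0.08 at 24 h (adjusted p = 0.522). HSPB1 (HSP27) rose by 1.33 and 1.39, and HSPB8 by 1.29 at 24 h. HSF2 fell, with a log2 change of -0.80 and -0.86, and the mitochondrial chaperonin HSPD1 with -0.62 and -0.80. HSF2 was not called with the trend removed (-0.12 and -0.19), and the 12 h call of HSPD1 was lost without PA 12 h replicate 1 (-0.37, adjusted p = 0.0539). Among J-domain genes with other names, besides GAK, SEC63, the J-domain subunit of the protein translocation machinery, fell, with a log2 change of -1.39 and -1.34. Many of these heat shock genes have processed pseudogenes or close copies, so their counts carry an unknown share of shared reads.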

How the data were processed

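RNA of PANC-1 cells was sequenced as pairs of 151-nt reads, per the labels' protocols, in 14 libraries, 2 for each of 7 groups. Counts were deposited as raw reads, not normalized, for 28120 genes labelled as expressed. A DNAJ gene absent from that deposit would not be among the members. The deposited RPKM values were scaled by the authors to gene length and library total. The submitters' processing notes name TopHat2, edgeR and GRCh38 without versions or roles. No counting tool, annotation release or strand setting is named there or in the labels.

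Counts of all genes were fitted with edgeR 4.0.16 in R 4.3.3 (TMM, filterByExpr by group, 15181 genes, quasi-likelihood, 1 mean per group, 7 residual degrees of freedom). P-values were two-sided and adjusted by Benjamini-Hochberg over all tested genes, with a threshold of 0.05. Each SE is the log2 change over the root of its F statistic. Class shares are shares of summed deposited RPKM in each library. GC content and length came from the longest basic transcript of GENCODE 29, and each library's trend on them (natural splines, 5 degrees of freedom) entered as an offset in an alternative fit. Promoters came from RefSeq, GRCh38.p14. The methods were tested on simulated data.

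Alternatives were DESeq2 1.42.0, edgeR with the size factors of DESeq2, a minimum of 5 CPM in 2 libraries or no filter, a replicate block, the 4 libraries of a comparison alone, limma 3.58.1 on log2 RPKM with a pseudocount of 1 or 0.1 and with a minimum RPKM of 1 in 2 libraries, the GC offset, class shares by CPM or without top members, and leaving out each library. A fit without mitochondrial genes, a GC offset without length, class sums of RPKM divided by the TMM factor, and these alternatives for the partner and marker lists were added after seeing the data. Where leaving out a library left a group with 1, that library is assumed to vary like the others. The members and gene lists were chosen with earlier results of these data known. Libraries of the same group differed by more than sampling noise (chi-square per degree of freedom of 11.2 to 114), so none was treated as a second deposit of another; such spread can also come from library preparation. Values in every library are given for up to 5 largest rises and falls at each PA time among called members with a mean of at least 2 CPM, for the most abundant member of each class, and for DNAJA1, DNAJB1, DNAJB9 and DNAJC3. DNAJB6 and DNAJC9 were added to these after their values were seen. Of each list of partners, up to 4 called genes with the smallest p at 12 or 24 h are named, with HSPA5, HSPA8, HSPA1A and HSF1; CDH1 and the other marker genes stand for their lists.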

Additional observations from a re-analysis of the deposited data

Results flagged for a closer look

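For 7 DNAJ genes the effect of PA at 24 h differed from that at 3 h by edgeR's test of the difference itself. The difference, on the log2 scale, was 1.40 ± 0.243 (SE, adjusted p = 0.00341) for DNAJB2, 0.65 ± 0.15 (adjusted p = 0.0146) for DNAJB6, and 1.54 ± 0.382 (adjusted p = 0.0193) for DNAJC12. It was 0.88 ± 0.266 (adjusted p = 0.042) for DNAJC18 and 0.76 ± 0.223 (adjusted p = 0.0366) for DNAJC5. DNAJC2 had -1.43 ± 0.388 (adjusted p = 0.0274) and DNAJC9 -0.81 ± 0.183 (adjusted p = 0.0132), so that their levels in PA against DMSO were lower at 24 h than at 3 h. DNAJB9, DNAJB11 and DNAJC3 were not called in this test.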

How the results depend on the processing

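The 12 and 24 h directions of called members held under DESeq2, its size factors, both filters, the RPKM scale, the removal of mitochondrial genes and each library left out, and changed only under the GC offsets. Under log2(RPKM + 1) the median of all genes shifted by -0.128 at 12 h and -0.282 at 24 h. With the GC and length offset, with it and the replicate block, and with the GC offset alone, the members lower at 12 h numbered 6, 5 and 6 in place of 14, and at 24 h 7, 7 and 10 in place of 16. The offset gave 8 lower in place of 18 for the mean, 4 in place of 2 for 24 h minus 3 h, 1 higher and 1 lower for 12 h minus 3 h and 1 lower for DMSO at 12 h, each in place of 0. DESeq2 gave 1 higher and 1 lower for 12 h minus 3 h and 1 higher for DMSO at 12 h. Members lower at 3 h (2) numbered 4 without a filter, 1 at 5 CPM, 4 with the 4 libraries alone, 1 with RPKM + 1 and 0 with RPKM + 0.1. Higher at 12 h (10) were 3 with the 4 libraries alone and 6 with either RPKM scale, and lower (14) were 4 with the 4 libraries. Fewer libraries were fitted in the former; other causes were not tested.

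Under the same 3 GC offsets the log2 change turned to 0.631, 0.634 and 0.681 at 12 h and 0.591, 0.591 and 0.619 at 24 h for DNAJB4, to 0.630, 0.628 and 0.683 for DNAJA2 at 12 h, to 0.569, 0.576 and 0.701 for DNAJC19 at 12 h (0.591 at 24 h by GC alone), to 0.0845, 0.0891 and 0.0111 for DNAJC21 at 12 h, to 0.998, 0.996 and 0.889 for DNAJC15 at 24 h, to 0.180, 0.182 and 0.0751 for DNAJC10 at 24 h, and to -0.00236 for DNAJC5 at 12 h by GC alone.

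Leaving out 1 library gave 0 to 2 lower at 3 h, 3 to 11 higher and 7 to 16 lower at 12 h, and class differences of -7.63 to -4.84 (A) and 6.78 to 12.3 (B) percentage points at 12 h and -3.13 to 0.0885 (C) at 3 h, the last turned without DMSO 3 h replicate 2. By CPM the 12 h differences were -4.83 for class A and -5.35 for class C. Without the most abundant members they were 0.138 (A) and -5.39 (C) at 3 h, -0.544 (A), 11.6 (B) and -11.0 (C) at 12 h, and -0.704 (A), 16.1 (B) and -15.4 (C) at 24 h.

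Over 21 pairs of groups the correlation of residuals of replicate 1 was -0.182 to 0.21, and 2 exceeded 0.1. With 2 libraries per group this rests on 1 residual per gene and group, so it cannot decide whether replicate numbers pair the libraries. The replicate block changed the call of DNAJB4 at 24 h (-0.601, adjusted p = 0.0603) and no other at 3, 12 or 24 h. With 2 libraries per group and low counts of DNAJA4, DNAJC22, DNAJC12 and DNAJC28, small changes of these genes were not detectable.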
